A study of Mus musculus with 8 samples.

Results

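The genes described here are the 6 genes of the platelet-derived growth factor (PDGF) ligands and receptors, chosen by name from the 22609 gene symbols of the deposited count tables: the ligands Pdgfa, Pdgfb, Pdgfc and Pdgfd and the receptors Pdgfra and Pdgfrb. All 6 were in the tables, and in the 6 libraries compared each had enough reads to be tested. The question was whether loss of Bmp2 in dental papilla cells goes with another level of the PDGF genes, and whether that level moves with culture time.

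Total RNA was sequenced from iBmp2 fx/fx cells (Fx), an immortalized mouse dental papilla line whose Bmp2 alleles are floxed and not deleted, and from iBmp2 ko/ko cells (Ko), the matching line with both Bmp2 alleles deleted. No agent was named for the cultures of the RNA-seq experiment, so the groups differ in the Bmp2 genotype and in culture time alone as far as the labels say, and animal age is not given. Each genotype had 1 library at each of 6, 24, 48 and 72 h of culture, which gave 4 Fx and 4 Ko libraries, and the series text gives 8 h where the labels give 6 h. Each genotype is 1 cell line, so the culture times stand in for replicates and p-values measure only the spread between these libraries. The genotype test used the 6 libraries of 6, 48 and 72 h (3 Fx, 3 Ko), the times named in the study's methods.

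PDGFs are dimeric growth factors for mesenchymal cells. PDGF-A and PDGF-B are processed inside the cell, whereas PDGF-C and PDGF-D are secreted as latent dimers whose CUB domains must be cut off by extracellular proteases. The receptors are tyrosine kinases that dimerize on binding: PDGF-A and PDGF-C act through the alpha receptor, PDGF-D acts mainly through the beta receptor, and PDGF-B binds both. In the tooth, PDGF-A is made largely by the dental epithelium and the alpha receptor by the dental mesenchyme, and the beta receptor is well known from pericytes and other perivascular mesenchyme.

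Between 25890110 and 32415665 reads were counted on genes per library, with a median of 29985177, and levels are given as CPM (counts scaled to the sum of the reads counted on genes of that library). At this depth 3 counts, taken as the smallest detectable level, corresponded to 0.0925 to 0.116 CPM, a floor that covers counting error only. Bmp2 had 1 read in the Fx library of 24 h and 0 in the other 7 libraries, so the deletion could not be checked by its transcript. The Ko library of 24 h stood apart from the other Ko libraries: of the 13121 genes tested, 64.8% lay nearer in it to the Fx mean of 6, 48 and 72 h than to the Ko mean, against 72.8% in the Fx library of 24 h. The main tests below use 6, 48 and 72 h, as the study's methods do, and the Ko library of 24 h is shown apart, except that the nearest profiles at the end were found over all 8 libraries. Markers of fibroblast mesenchyme were abundant in all 8 libraries, with a summed level of 7393 to 9533 CPM in Fx, 10722 to 17133 CPM in Ko at 6, 48 and 72 h and 8953 CPM in Ko at 24 h. Of these 5 markers 1, Thy1, was called higher in the main test and 4 with culture time as a block, where 0.915 and 11.3% of all genes tested were. Of 10 markers of dental mesenchyme, 8 had 3 or more counts in each library, whereas Barx1 and Lhx8 did not reach 3 counts in any library. Of the 8, 7 had a negative log2 fold change, 0 were called in the main test (3 had an unadjusted p under 0.05 in edgeR, and DESeq2 called 2 and limma 0) and 4 were lower with the block. Of 5 odontoblast markers, Dspp, the defining gene, was at 0 in 7 of 8 libraries. The odontoblast list summed to 132 to 232 CPM in Fx, 89.0 to 113 CPM in Ko at 6, 48 and 72 h and 137 CPM in Ko at 24 h. Of its 3 tested markers 1 was called lower in the main test, Alpl (41.3 ± 25.0 CPM in Fx, 0.851 ± 0.436 CPM in Ko, adjusted p = 0.0153 in edgeR, n = 3 each), and with culture time as a block Alpl and Nes were, where 1.30 and 11.4% of all genes tested were called lower in these fits.

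Pdgfd was the 1 member called between genotypes in the main test, as higher in the Ko cells, and it entered that test through its Ko libraries alone, since its Fx counts are under the low-count limit. Without any low-count filter its log2 fold change was 3.43 (SE 0.57) at an adjusted p of 0.0186 in edgeR, in a fit that called 1.85% of genes. The other ligands were lower on average in Ko (Pdgfa, Pdgfc, Pdgfb) and the receptors pointed in opposite directions, Pdgfra lower and Pdgfrb higher, but none of these 5 passed the main test. Genotype was tested with the quasi-likelihood method of edgeR, p-values were adjusted by Benjamini-Hochberg over all genes tested, and a gene was called at an adjusted p of at most 0.05. SE denotes the standard error of a log2 fold change. By that limit 1 of 6 members was called, where 2.22% of the 13121 genes tested were called and 0.915% were called as higher. Pdgfd and Pdgfa, 2 of 6, passed the limit of the study's methods (a log2 fold change beyond 1 in size, with p under 0.05 before adjustment), which 7.35% of the genes tested passed. Here that limit was applied to edgeR results, whereas the study names limma and log2 RPKM, so its own gene list can differ. Libraries of the same culture time varied together, and when culture time was added as a block 4 of 6 members were called, Pdgfd and Pdgfrb higher and Pdgfa and Pdgfra lower in Ko, in a fit that called 22.7% of all genes tested, 11.3% as higher and 11.4% as lower. Over all 8 libraries, where Pdgfd was under the filter, 0 of the 5 members tested were called by edgeR without a block, as were 0.00% of the genes tested, and 10.2% of genes, and 1 member, had an unadjusted p under 0.05. With the Fx library of 24 h added and the Ko library of 24 h left out, Pdgfd was again the member called (3.55, SE 0.47, adjusted p = 0.0066), in a fit that called 3.66% of genes.

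**Figure D1:**
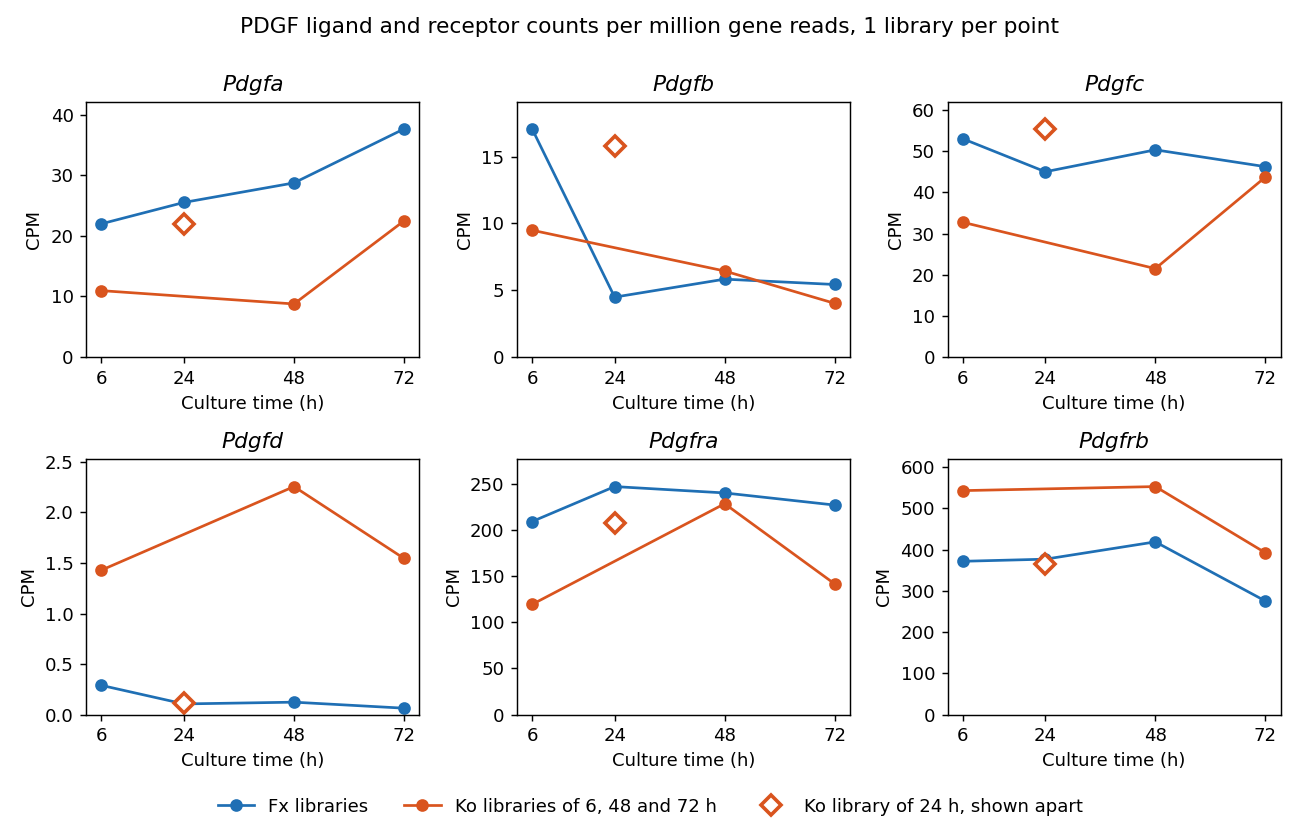
CPM (vertical axes, linear from 0) of each PDGF gene against culture time in hours, 1 library per point. Blue points are Fx and orange points Ko, and the open diamond is the Ko library of 24 h, which stands near the Fx points for Pdgfd, Pdgfra and Pdgfrb, whereas Pdgfd at 6, 48 and 72 h is 1.43 to 2.26 CPM in Ko against 0.0639 to 0.289 CPM in Fx.

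The sequences just before the start sites of Pdgfd, the member called as higher in Ko, and of Pdgfa and Pdgfra, which did not pass the main test and were called as lower in Ko with culture time as a block, are shown to let their composition be compared. They are the 250 bases before the RefSeq transcription start (RefSeq table on GRCm38.p6), written 5′ to 3′ on the strand of the gene, and their mm9 positions come from the only exact match to the mm9 genome. Of the 6 members, 4 had an entry in the table: Pdgfa, Pdgfc, Pdgfd and Pdgfra. Capitals mark TATAAA or GGGCGG on either strand, so that a GGGCGG of the other strand reads CCGCCC.
Pdgfd, chr9:6168236-6168485, plus strand: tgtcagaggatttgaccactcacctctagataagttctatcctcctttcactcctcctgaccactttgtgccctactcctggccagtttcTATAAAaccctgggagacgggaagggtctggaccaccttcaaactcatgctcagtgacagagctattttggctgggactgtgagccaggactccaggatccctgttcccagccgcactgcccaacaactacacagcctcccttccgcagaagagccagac
Pdgfa, chr5:139470899-139471148, minus strand: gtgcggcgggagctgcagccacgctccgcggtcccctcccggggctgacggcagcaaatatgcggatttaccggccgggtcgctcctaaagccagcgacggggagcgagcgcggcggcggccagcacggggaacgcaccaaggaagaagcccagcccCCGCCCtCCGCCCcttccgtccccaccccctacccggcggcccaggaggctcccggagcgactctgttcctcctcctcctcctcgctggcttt
Pdgfra, chr5:75548026-75548275, plus strand: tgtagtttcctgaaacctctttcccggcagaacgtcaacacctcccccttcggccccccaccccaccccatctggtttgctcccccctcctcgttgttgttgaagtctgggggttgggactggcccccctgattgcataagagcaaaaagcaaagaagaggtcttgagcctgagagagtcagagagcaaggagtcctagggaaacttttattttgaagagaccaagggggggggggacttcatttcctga
The window of Pdgfd held 1 TATAAA, a motif found in 12.4% of the 32851 windows of this length in the table, and no GGGCGG. The window of the upstream start of Pdgfa held 2 GGGCGG, a motif found in 32.7% of the windows, and had a GC content of 72.4%, against 53.6% for Pdgfd, 54.4% for Pdgfra and a median of 52.4% over all windows. Pdgfra held neither motif. The motifs GGCGCC (9.59% of windows) and TGANTCA (6.75% of windows), searched on both strands, were in none of the member windows, those of Pdgfc and of the other Pdgfa start included. The motifs do not overlap in these windows, and a match describes letters and not a bound site.

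Pdgfd encodes a latent ligand of the beta receptor (chromosome 9 of mm9, 6168612 to 6378843, plus strand). It had 9, 4 and 2 counts in the Fx libraries of 6, 48 and 72 h and 42, 69 and 40 counts in the Ko libraries of these times. That is 0.289, 0.123 and 0.0639 CPM in Fx and 1.43, 2.26 and 1.54 CPM in Ko, so that every Ko library lay above every Fx library. The CPM values of the genotypes did not overlap for 2 of 6 members, Pdgfd (Ko higher) and Pdgfc (Ko lower), and for 19.3% of all genes tested (8.76% Ko higher, 10.5% Ko lower). The mean was 0.159 ± 0.117 CPM in Fx and 1.74 ± 0.448 CPM in Ko (SD, n = 3 each), a log2 fold change of 3.44 (SE 0.56) (10.8-fold), at an adjusted p of 0.0277 in edgeR. Pdgfd was the least abundant member. At single times the Ko level was 4.94-fold the Fx level at 6 h (95% counting interval 2.37 to 11.5), 18.3-fold at 48 h (6.83 to 69.0) and 24.2-fold at 72 h (6.27 to 207), and these intervals cover counting error only. The Fx library of 72 h, at 2 counts, lay under the 3 counts taken as detectable. The fold at 72 h therefore cannot be ranked against that at 48 h. At 24 h both libraries had 3 counts, 0.106 CPM in Fx and 0.116 CPM in Ko. Leaving out single libraries, the log2 fold change stayed between 3.09 and 4.13, while the adjusted p ran from 0.0325 to 0.181 and passed the limit without the Fx library of 6 h or the Ko library of 72 h. The call was lost without the Ko library of 6 h (3.57, adjusted p = 0.0823 in edgeR) or the Fx library of 48 h (3.28, adjusted p = 0.181). It was also lost without the Ko library of 48 h (3.22, adjusted p = 0.127) or the Fx library of 72 h (3.09, adjusted p = 0.0673). In that order these fits called 0.675, 0.105, 0.0676 and 1.19% of genes, against 2.22% in the main test. The fits without Fx at 6 h and Ko at 72 h, which kept the call, called 0.660 and 2.86%.

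Pdgfa encodes a ligand of the alpha receptor (chromosome 5 of mm9, 139451968 to 139473324, minus strand). Its Fx libraries held 22.0, 25.5, 28.8 and 37.7 CPM at 6, 24, 48 and 72 h (684, 723, 932 and 1179 counts). Its Ko libraries held 11.0, 8.76 and 22.5 CPM at 6, 48 and 72 h (322, 268 and 582 counts) and 22.0 CPM at 24 h (571 counts). Ko was below Fx at each of the 4 times, but the groups overlapped, since the Ko library of 72 h was above the Fx library of 6 h. The mean over 6, 48 and 72 h was 29.5 ± 7.86 CPM in Fx and 14.1 ± 7.37 CPM in Ko (SD, n = 3 each). The log2 fold change was -1.06 (SE 0.41) and did not pass the main test (adjusted p = 0.311, unadjusted p = 0.0359 in edgeR). The block of culture time gave -1.14 (SE 0.20) and an adjusted p of 0.0067. Without the Ko library of 72 h and without a block it was -1.63, with an adjusted p of 0.0424. The exons of Pdgfa share 813 of 3119 bases (26.1%) with 6330403L08Rik on the opposite strand. The strand setting of the counting is not given in the sources used here, so how reads on the shared bases were counted is not known. Both RefSeq starts of Pdgfa lie inside the gene as GENCODE M1 draws it.

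Pdgfc encodes the other latent ligand, which acts on the alpha receptor (chromosome 3 of mm9, 80840338 to 81017962, plus strand). It was steady in Fx, with 53.0, 45.0, 50.3 and 46.3 CPM at 6, 24, 48 and 72 h (1649, 1275, 1632 and 1448 counts). The Ko libraries had 32.7, 21.5 and 43.7 CPM at 6, 48 and 72 h (962, 657 and 1132 counts) and 55.4 CPM at 24 h (1438 counts). Over 6, 48 and 72 h all Ko values lay below all Fx values, by a narrow margin at 72 h, whereas the Ko library of 24 h was the highest of the 8. The means were 49.9 ± 3.42 CPM in Fx and 32.6 ± 11.1 CPM in Ko (SD, n = 3 each), a log2 fold change of -0.60 (SE 0.27) that did not pass the test (adjusted p = 0.398 in edgeR, and 0.0531 with culture time as a block). It was -0.36 without the Ko library of 48 h, -0.92 without the Ko library of 72 h and -0.35 over all 8 libraries. Genes of chromosome 3 as a whole had a median log2 fold change of -0.39 over 632 tested genes, against 0.03 over all genes. The median was -0.17 on chromosome 15 of Pdgfb and 0.17 on chromosome 18 of Pdgfrb, in the direction of these members. It was -0.03 on chromosome 5 of Pdgfa and Pdgfra and 0.01 on chromosome 9 of Pdgfd. The part of these medians in the member values was not tested. Of the exon bases of Pdgfc, 147 (2.89%) are shared with Gm16000 on the opposite strand.

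Pdgfb encodes the ligand of both receptors (chromosome 15 of mm9, 79826330 to 79845238, minus strand). In Fx it had 17.1 CPM at 6 h and then 4.48, 5.83 and 5.43 CPM at 24, 48 and 72 h (531, 127, 189 and 170 counts). In Ko it had 9.50, 6.44 and 4.02 CPM at 6, 48 and 72 h (279, 197 and 104 counts) and 15.8 CPM at 24 h (410 counts). The genotypes overlapped, and the highest level within a genotype was at 6 h in Fx and at 24 h in Ko. The log2 fold change over 6 libraries was -0.50 (SE 0.52) (adjusted p = 0.752 in edgeR). Its sign rested on 1 library, since it was 0.19 without the Fx library of 6 h, and it was 0.11 over all 8 libraries.

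Pdgfra encodes the alpha receptor (chromosome 5 of mm9, 75548316 to 75594229, plus strand). The Fx libraries lay close together at 209, 247, 240 and 227 CPM at 6, 24, 48 and 72 h (6506, 6999, 7787 and 7109 counts). The Ko libraries had 119, 229 and 142 CPM at 6, 48 and 72 h (3510, 6990 and 3667 counts) and 208 CPM at 24 h (5397 counts). Ko was below Fx at each of the 4 times, and the Ko library of 48 h nevertheless reached the Fx range. The means of 226 ± 15.5 CPM in Fx and 163 ± 57.6 CPM in Ko (SD, n = 3 each) gave a log2 fold change of -0.46 (SE 0.27), which did not pass the test (adjusted p = 0.508 in edgeR). It was -0.27 without the Ko library of 6 h and -0.78 without the Ko library of 48 h. In the fit blocked on culture time it was -0.52 (SE 0.15) and an adjusted p of 0.0482. In that block fit, leaving out both libraries of 6 h or of 72 h ended the call (-0.38 and -0.46, adjusted p = 0.194 and 0.205, in fits that called 13.9 and 11.7% of genes), and without those of 48 h it held (-0.74, adjusted p = 0.0059, 19.6% of genes called). These fits were chosen after seeing the data.

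Pdgfrb encodes the beta receptor (chromosome 18 of mm9, 61204804 to 61244715, plus strand) and was the most abundant member. It had 372, 377, 419 and 275 CPM in Fx at 6, 24, 48 and 72 h (11556, 10672, 13575 and 8621 counts). It had 543, 553 and 392 CPM in Ko at 6, 48 and 72 h (15954, 16907 and 10157 counts) and 365 CPM in Ko at 24 h (9469 counts). Ko was above Fx at 6, 48 and 72 h by 1.46-, 1.32- and 1.42-fold and at 24 h was 0.969-fold the Fx level, and the groups overlapped because the Ko library of 72 h was below the Fx library of 48 h. The log2 fold change was 0.49 (SE 0.23) (355 ± 73.1 CPM in Fx, 496 ± 89.9 CPM in Ko, SD, n = 3 each) and did not pass the test (adjusted p = 0.408 in edgeR). With culture time as a block it was 0.49 (SE 0.11) and an adjusted p of 0.0161, and this call was lost without both libraries of 6 h (0.46, adjusted p = 0.0684) or of 72 h (0.45, adjusted p = 0.139). Among 8 markers of pericytes and smooth muscle, where the beta receptor is usually found, Abcc9 and Kcnj8 were at 0 in all 8 libraries and 4 were tested, with a median log2 fold change of -1.20. Cspg4 fell in Ko (log2 fold change -2.37, adjusted p = 0.0441 in edgeR, with 0.600 CPM in Fx and 0.964 CPM in Ko at 24 h), and with culture time as a block 3 were lower (Cspg4, Des and Notch3) and 1 higher (Acta2), against 1.30% of all genes called lower in the main test and 11.4% lower and 11.3% higher with the block. The summed level of the list, nearly all of it Acta2, was 470 to 899 CPM in Fx and 521 to 1510 CPM in Ko at 6, 48 and 72 h, and at 24 h 450 CPM in Fx and 449 CPM in Ko. The part of these markers in the Pdgfrb level was not tested. In bulk RNA, a change in the share of cells with a transcript and a change in the transcript per cell cannot be told apart.

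**Figure D2:**
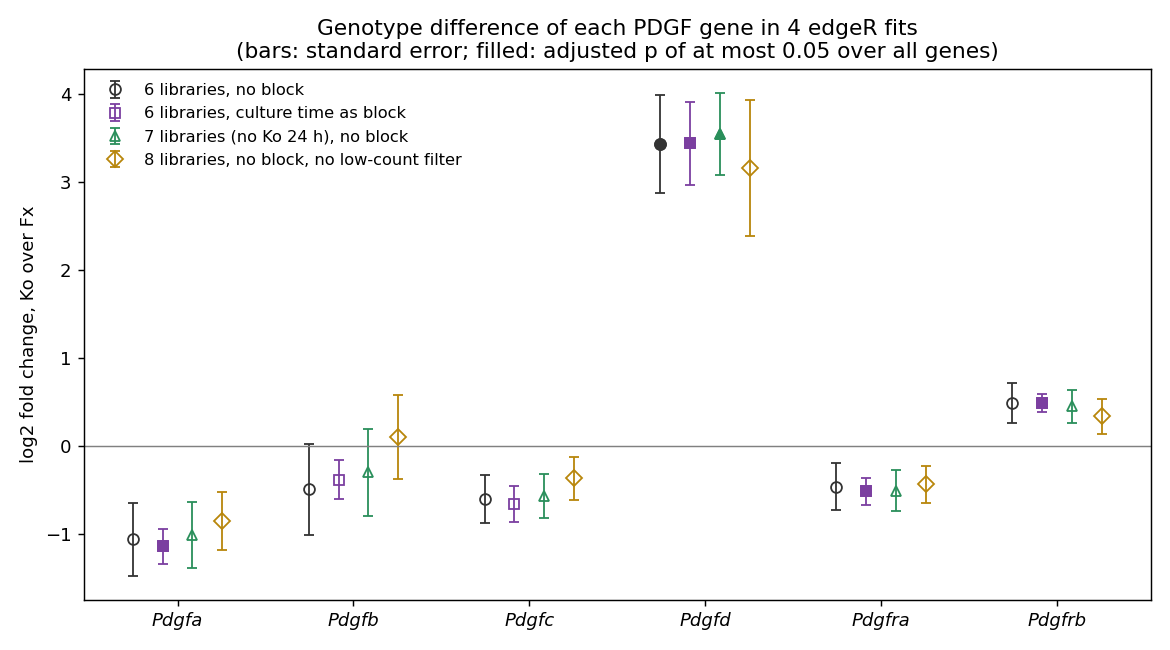
Log2 fold change of Ko over Fx (vertical axis) with its standard error (bars) for each PDGF gene in 4 edgeR fits. Filled symbols have an adjusted p of at most 0.05 over all genes tested: Pdgfd is filled in 3 of the 4 fits, Pdgfa, Pdgfra and Pdgfrb in the block fit alone, and Pdgfb and Pdgfc in none.

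Because both receptors are read in the same library, their ratio does not depend on library size. The ratio of Pdgfra to Pdgfrb counts had a mean log2 of -0.64 ± 0.31 in Fx and -1.64 ± 0.48 in Ko (SD, n = 3 each), a difference of -1.01 that reached p = 0.1 in the exact two-sided permutation test (adjusted over the 3 ratios tested, 0.15), the smallest p that 3 against 3 libraries allow. With the Fx library of 24 h added the difference was -1.01 (exact permutation p = 0.0571, again the smallest possible), and over all 8 libraries it was -0.81 (exact permutation p = 0.0571). For the latent ligands, the log2 ratio of Pdgfc to Pdgfd counts was 8.56 ± 1.00 in Fx and 4.20 ± 0.83 in Ko (exact permutation p = 0.1, n = 3 each). The Ko library of 24 h, at 8.90, lay in the Fx range, and over all 8 libraries the difference went from -4.37 to -3.23 (exact permutation p = 0.114). For the classical ligands, the log2 ratio of Pdgfa to Pdgfb was 1.82 ± 1.28 in Fx and 1.05 ± 1.25 in Ko, a difference that did not pass the test (exact permutation p = 0.6, n = 3 each), which does not pair libraries by time. Within a time the Pdgfa to Pdgfb ratio of Ko was below that of Fx at each of the 4 times (0.21 against 0.37 at 6 h, 0.48 against 2.51 at 24 h, 0.44 against 2.30 at 48 h and 2.48 against 2.79 at 72 h, on the log2 scale).

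Levels were compared between genes as RPKM, which is CPM divided by the annotated exon length in kilobases. Pdgfrb was the highest in every library (50.3 to 76.4 RPKM in Fx, 71.6 to 101 RPKM in Ko at 6, 48 and 72 h and 66.6 RPKM in Ko at 24 h), followed by Pdgfra (31.1 to 36.7 RPKM in Fx, 17.7 to 33.9 RPKM in Ko at 6, 48 and 72 h and 30.9 RPKM in Ko at 24 h). Pdgfc and Pdgfa came next, at 9.80 ± 0.67 and 9.45 ± 2.52 RPKM in Fx and 6.42 ± 2.19 and 4.51 ± 2.36 RPKM in Ko (SD, n = 3 each over 6, 48 and 72 h) and their values overlapped between libraries in both genotypes. Read within a library, Pdgfc was above Pdgfa in all 4 Ko libraries (6.43 against 3.51 RPKM at 6 h, 10.9 against 7.06 at 24 h, 4.22 against 2.81 at 48 h and 8.59 against 7.21 at 72 h). In Fx it was above Pdgfa at 6, 24 and 48 h and below it at 72 h (9.09 against 12.1 RPKM). With the length of the longest transcript in place of all exons, these values at 72 h were 13.1 and 18.3 RPKM. The order of Pdgfc and Pdgfa in the Fx means of 6, 48 and 72 h then turned, and their order within each library did not. Pdgfb followed at 3.24 ± 2.27 RPKM in Fx and 2.28 ± 0.94 RPKM in Ko, and Pdgfd was last at 0.0510 ± 0.0375 and 0.559 ± 0.143 RPKM. Of the summed receptor RPKM, Pdgfra held 31.4, 34.8, 31.8 and 40.1% in Fx at 6, 24, 48 and 72 h, and 15.2, 25.2 and 22.7% in Ko at 6, 48 and 72 h. The Ko library of 24 h, at 31.7%, lay in the Fx range. Pdgfd held 0.0889 to 0.396% of the summed ligand RPKM in the Fx libraries and 2.80 to 7.26% in Ko at 6, 48 and 72 h. In the Ko library of 24 h it held 0.158%, which lay in the Fx range. Pdgfd thus remained the smallest part of the ligand mRNA in both genotypes. In each library the receptors summed to more than the ligands, by 3.64- to 5.67-fold in Fx by 5.24- to 13.5-fold in Ko at 6, 48 and 72 h and by 4.17-fold in Ko at 24 h.

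**Figure D3:**
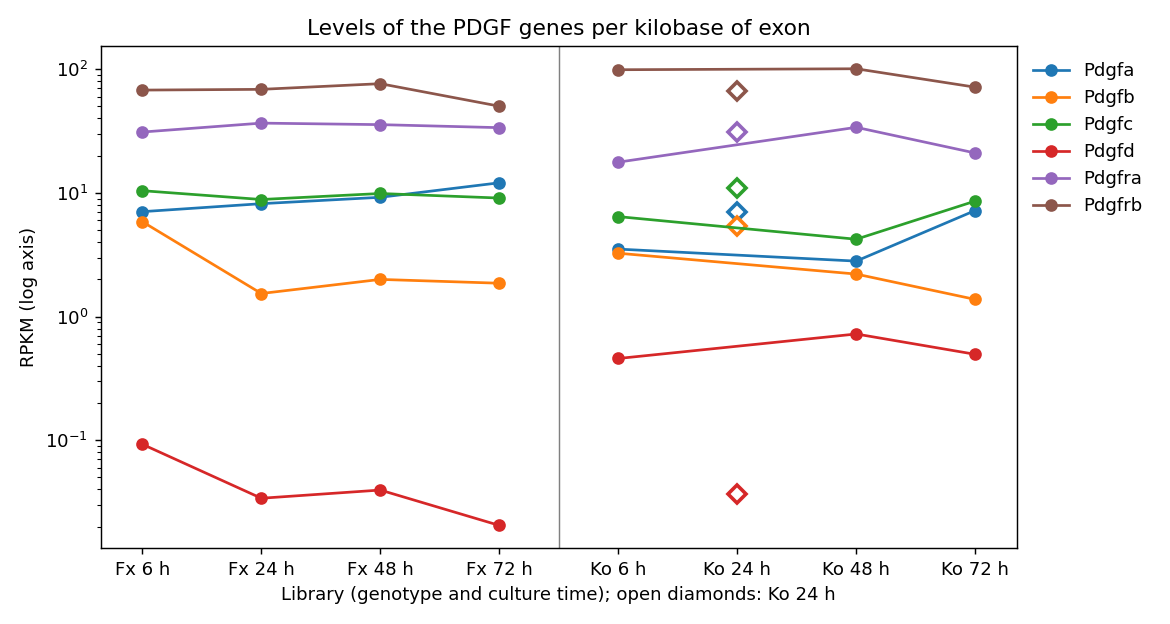
RPKM on a log axis for the 6 PDGF genes in the 8 libraries, Fx left and Ko right, with open diamonds for the Ko library of 24 h. Pdgfrb is the highest and Pdgfd the lowest line in every library, and Pdgfd is 0.0510 RPKM on average in Fx and 0.559 RPKM in Ko at 6, 48 and 72 h.

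Culture time was tested as the slope on the log2 of hours across both genotypes, over the same 6 libraries. Over these libraries Pdgfb had the steepest slope of the members, -0.37 log2 units per doubling of time (SE 0.08). From 6 to 72 h it was 3.14-fold lower at the end in Fx and 2.36-fold lower in Ko. The slope had an unadjusted p of 0.0031 and did not pass the limit over all genes (adjusted p = 0.178), where edgeR called 0.00% of the genes tested and 21.1% had an unadjusted p under 0.05. Without the Fx library of 6 h the slope of Pdgfb was -0.26 (unadjusted p = 0.0755 in edgeR), and without the Ko library of 6 h it was -0.47, where that of Pdgfd was steeper at -0.50. Pdgfa pointed the other way, with a slope of 0.21 (adjusted p = 0.298 in edgeR) and a level at 72 h that was 1.71-fold that at 6 h in Fx and 2.05-fold in Ko. Without the Ko library of 72 h the slope of Pdgfa was 0.097, and without the Ko library of 6 h that of Pdgfra, 0.12 over the 6 libraries, was 0.035. Pdgfra (0.12), Pdgfc (0.01), Pdgfrb (-0.05) and Pdgfd (-0.11) had smaller slopes, with adjusted p in edgeR from 0.381 to 0.937, and that of Pdgfrb was -0.0057 without the Fx library of 72 h. No member had a slope that differed between genotypes by edgeR's interaction test, in which each member had an adjusted p of 1.0, 0.00% of the genes tested were called and 0.480% had an unadjusted p under 0.05. The smallest unadjusted p among the members was that of Pdgfd, 0.0880.

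The Ko library of 24 h lay nearer to the Fx mean than to the Ko mean of 6, 48 and 72 h for all 6 members. The distances on the log2 scale were 0.17 to Fx and 3.07 to Ko for Pdgfd, 0.06 and 0.43 for Pdgfrb, 0.11 and 0.41 for Pdgfra, 0.15 and 0.82 for Pdgfc, 0.39 and 0.76 for Pdgfa, and 0.95 and 1.32 for Pdgfb. Over all genes tested the share was 64.8%, as given above. In the Fx library of 24 h, 5 of 6 members lay nearer to the Fx mean and Pdgfb nearer to the Ko mean. A test of the genotype difference at 24 h against that at the other times, chosen after seeing the data, called none of the 5 members tested and 0.00% of the genes tested, of which 5.02% had an unadjusted p under 0.05. Pdgfb had a difference of 2.27 (SE 1.03) (unadjusted p = 0.0622) and an adjusted p of 1.00 in edgeR. Pdgfd was under the filter, and in the fit without one its difference was -3.37 (SE 1.42) (unadjusted p = 0.0414, adjusted p = 1.00 in edgeR), where 0.0327% of genes were called and 4.25% had an unadjusted p under 0.05. Over all 8 libraries without a filter, the log2 fold change of Pdgfd was 3.16 (SE 0.77) and an adjusted p of 0.363.

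Genes around the members in the pathway were taken from lists of names, chosen with earlier results of these data known. The counts in these lists are read against the shares over all genes tested: 14.0% had an unadjusted p under 0.05 in edgeR, DESeq2 called 6.65% (2.74% higher, 3.92% lower) and limma 2.40%, and the block fit called 11.3% as higher and 11.4% as lower. Of 11 genes that process or bind PDGF, 8 were tested, 0 passed the adjusted limit in edgeR (2 had an unadjusted p under 0.05, and DESeq2 called 1 and limma 0), and the median log2 fold change was -0.16, against 0.03 over all 13121 genes tested. Nrp1, a coreceptor for PDGF and VEGF ligands, had 150 ± 55.5 CPM in Fx and 68.5 ± 30.8 CPM in Ko (SD, n = 3 each), a log2 fold change of -1.12 that did not pass (adjusted p = 0.310) and, with culture time as a block, 1 of -1.15 that did (adjusted p = 0.00083). Pcsk6, a proprotein convertase, had a log2 fold change of -0.74 and passed in the block fit (adjusted p = 0.0109) and in DESeq2 (adjusted p = 0.0048), though not in edgeR without the block (adjusted p = 0.125). Neither Furin, the convertase that cuts PDGF-A and PDGF-B (-0.21), nor Plat, the tissue plasminogen activator that activates PDGF-C (-0.36), was called in the fits over 6 libraries with or without the block, and Plat was called in the block fit without the libraries of 6 h (-0.76, adjusted p = 0.0087 in edgeR). The matrix protein Sparc, which binds PDGF, was at 2799 ± 414 CPM in Fx and 3018 ± 785 CPM in Ko, and the clearance receptor Lrp1 was at 896 ± 158 CPM and 1072 ± 359 CPM, both within their spread (SD, n = 3 each).

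Of 33 transducers of PDGF receptor signals, all were tested, and the median log2 fold change was -0.02. By edgeR 0 passed the main test and 6 had an unadjusted p under 0.05, while DESeq2 called 2 and limma 0. With culture time as a block 2 were higher and 7 lower in Ko. Those lower with the block included Pik3ca, a catalytic subunit of PI3 kinase (-0.67 in that fit), the adaptor Crkl (-0.68) and the protein kinase Prkca (-0.68). The phosphatase Ptpn11, which docks on the activated receptors, was at 351 ± 39.4 CPM in Fx and 312 ± 58.6 CPM in Ko and was called in neither fit.

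Of 15 attenuators of receptor signalling, all were tested and 1 rose in the main test, where 0.915% of all genes were called higher. By edgeR 4 had an unadjusted p under 0.05, while DESeq2 called 2 higher and limma 1 higher. Spry1, an inhibitor of receptor tyrosine kinase signalling, went from 2.68 ± 0.91 CPM in Fx to 11.6 ± 3.66 CPM in Ko, a log2 fold change of 2.11 (SE 0.39) and an adjusted p of 0.0428 in edgeR. Leaving out single libraries, its adjusted p in edgeR ran from 0.0404 to 0.188 and passed the limit in 1 of 6 fits. Those fits called 0.0676 to 2.86% of genes. At 24 h it had 3.88 CPM in Fx and 1.503 CPM in Ko. In the block fit 2 attenuators were higher in Ko, Spry1 and the receptor antagonist Lrig1 (0.83), and 4 were lower, among them the related Spry2 (-0.90) and the ubiquitin ligase Cblb (-0.65). Thus Spry1 and Spry2, members of 1 family, pointed in opposite directions. The median of the list was -0.13.

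All 15 genes known to be induced early by PDGF were tested. Over the 6 libraries 14 of 15 had a negative log2 fold change, where 46.4% of all genes tested did, and the median was -0.40. With the Fx library of 24 h added 12 of 15 were negative, as were 6203 of the 13208 genes tested. Over all 8 libraries 13 of 15 were, as were 5992 of the 13053 genes tested. By edgeR 0 passed the main test and 3 had an unadjusted p under 0.05, while DESeq2 called 2 lower and limma 0. Under the block 7 were lower and 0 higher in Ko. Among the 7 were the AP-1 subunits Junb, at 310 ± 62.9 CPM in Fx and 140 ± 61.3 CPM in Ko (-1.14, adjusted p = 0.199, and -1.21, adjusted p = 0.0014, with the block in edgeR, n = 3 each), and Fos (-1.09, adjusted p = 0.0908, and -1.10, adjusted p = 0.0027, with the block), and the urokinase receptor Plaur (-0.92, and -1.06 with the block). Without the Ko library of 72 h and without a block, Junb (-1.61, adjusted p = 0.0278) and Plaur (-1.63, adjusted p = 0.0364) were called in edgeR. The chemokine Ccl2 was the exception in sign over the 6 libraries (0.35) and passed in neither fit. At 24 h Junb had 218 CPM in Fx and 254 CPM in Ko, and Fos 11.0 and 13.5 CPM.

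Of 15 related growth factors and receptors, which are the VEGF branch of the family and the receptor kinases nearest to the PDGF receptors with their ligands, 13 were tested, and the median was -0.51. By edgeR 0 passed the main test and 5 had an unadjusted p under 0.05, while DESeq2 and limma called 0. Kit and Flt3 were under the filter. With culture time as a block 1 was higher in Ko, Vegfb (1.10), named after its values were seen, and 6 were lower. The 6, with their log2 fold changes in the block fit, were Vegfa (-0.51), Pgf (-1.26), the VEGF receptors Flt1 (-1.40) and Kdr (-1.30), the growth factor Csf1 (-0.51) and its receptor Csf1r (-1.64). Vegfa was at 203 ± 45.6 CPM in Fx and 143 ± 35.3 CPM in Ko, whereas Kdr and Csf1r were under 3 CPM on average in both genotypes (SD, n = 3 each). At 24 h Pgf, Flt1 and Kdr were higher in Ko than in Fx, at 1.16 against 0.459 CPM, 9.67 against 8.23 CPM and 1.93 against 1.62 CPM. Without a block the log2 fold changes of Pgf, Flt1 and Kdr were -1.23, -1.39 and -1.32 over 6 libraries and -0.46, -0.92 and -0.83 over all 8. Of the endothelial markers, Tie1 had at most 1 count and Cdh5 at most 4 counts in any library and the summed level was 1.51 to 3.66 CPM. The 2 endothelial markers tested were called in the block fit and not in the main test, Tek as higher (1.53) and Kdr as lower. Of 5 macrophage markers, Emr1 was at 0 in all 8 libraries, and the summed level was 4.09 to 14.1 CPM in Fx and 2.70 to 3.43 CPM in Ko at 6, 48 and 72 h, and 5.51 and 6.24 CPM at 24 h. Both tested markers of that list, Csf1r and Cd68, were lower in Ko in the block fit and neither passed the main test. The 5 epithelial markers, of which Ambn was at 0 in all 8 libraries, summed to 0.990 to 1.87 CPM in Fx and 0.270 to 0.919 CPM in Ko at 6, 48 and 72 h, and 0.741 and 1.85 CPM at 24 h. Krt14, the 1 epithelial marker tested, was likewise lower in Ko in the block fit (-1.45, adjusted p = 0.0414 in edgeR) and not in the main test. The part of these cell types in the values of the lists was not tested.

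**Figure D4:**
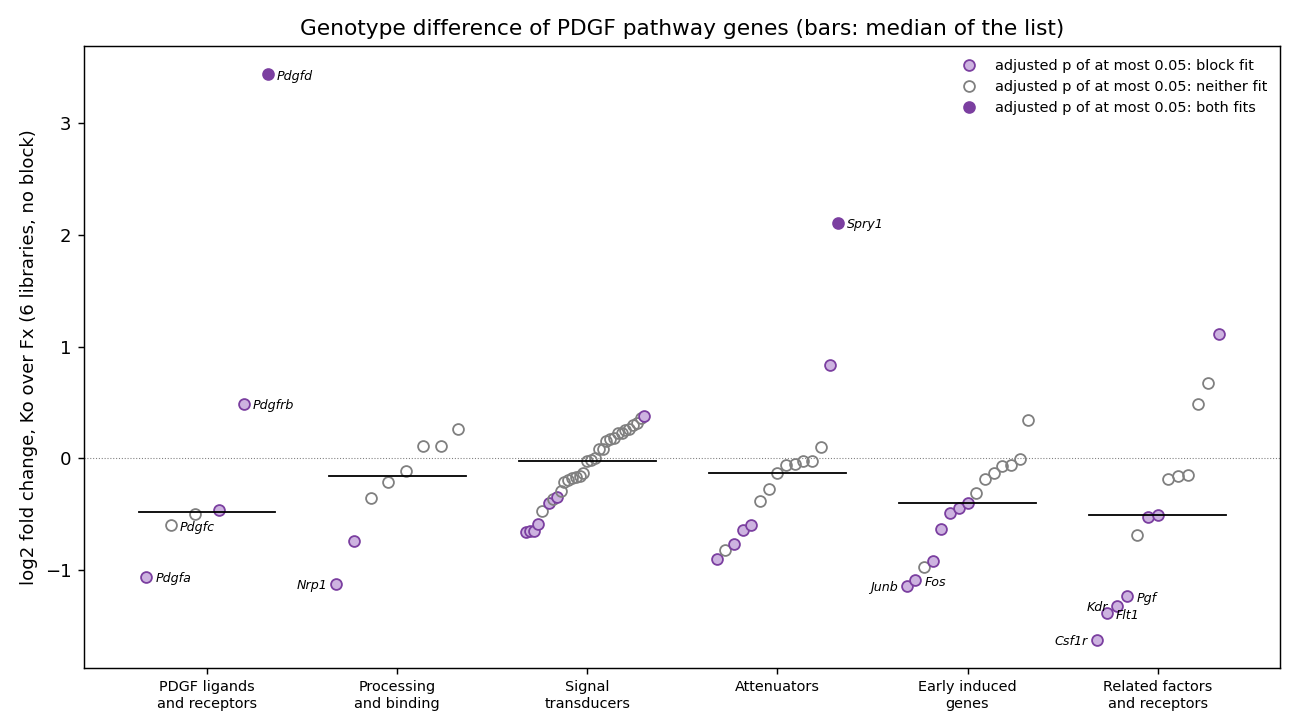
Log2 fold change of Ko over Fx over the 6 libraries without a block (vertical axis) for each tested gene of the 6 lists, sorted within a list, with the list's median as a bar and a pair of transducers left out. Filled points (Pdgfd, Spry1) have an adjusted p of at most 0.05 in the fits with and without the block, shaded points with the block alone and open points in neither.

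The profiles most like each member's were found over all 8 libraries, among 12058 genes of at least 1 CPM on average, by the root mean square (RMS) difference of log2 CPM after each gene was centred on its own mean. Pdgfd was not included, since over 8 libraries its counts were too low. Nearest to Pdgfa were the homeobox gene Dlx1 (RMS difference 0.135) and 7530420F21Rik (0.137), where Pdgfa itself varied about its mean by 0.677. Dlx1 is also 1 of the dental mesenchyme markers, whose summed level was 244 to 301 CPM in Fx, 155 to 203 CPM in Ko at 6, 48 and 72 h and 238 CPM in Ko at 24 h. Nearest to Pdgfc were Ptpla (0.111) and Nfil3 (0.160), and nearest to Pdgfb were Slc17a7 (0.220) and Chac1 (0.276), the loosest matches of the 5 members. By this difference, which is not scaled to a gene's own variation, Pdgfra had the closest matches, Myo9a (0.0426) and Ttbk2 (0.0447). Pdgfrb followed with Mettl21a (0.0744) and Pi4k2a (0.0750). Both receptors also varied least about their own means, by 0.362 for Pdgfra and 0.290 for Pdgfrb, against 0.431 for Pdgfc and 0.704 for Pdgfb. All of these profiles share the same 8 libraries, so likeness here also holds whatever those libraries have in common.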

How the data were processed

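Total RNA of the iBmp2 fx/fx (Fx) and iBmp2 ko/ko (Ko) cells was sequenced in 8 libraries. The authors aligned the reads to mm9 with TopHat2 2.0.8b, as the submitters' processing notes say, counted reads per gene symbol with HTSeq and deposited those raw counts without normalization. The labels describe single-end reads of 50 bases and the study's methods paired reads. The annotation and strand setting are not given in the sources used here. Alignments with several positions, which HTSeq leaves uncounted, were 41.3 to 49.6% of all records. The 5 summary counters were left out of library sizes, and the lncRNA tables were not used here.

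The genotype test used edgeR 4.0.16 in R 4.3.3 (TMM, filterByExpr, quasi-likelihood test, Benjamini-Hochberg adjustment over all genes tested) on the 6 libraries of 6, 48 and 72 h, without a block, as the study's methods name none. Culture time and its interaction with genotype were tested on log2 hours. Ratios within libraries were tested by exact permutation. Same-time libraries of the 2 genotypes deviated together from their genotype means (correlation across genes 0.713, 0.536 and 0.840 for 6, 48 and 72 h), so the fit with culture time as a block is printed where it changes a call. Exon lengths and positions came from GENCODE M1 on mm9, which held 94.8% of the symbols.

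The alternatives were 7 or 8 libraries, the block, DESeq2 1.42.0, limma 3.58.1, RLE size factors, other filters, time in hours and leaving out each library. Added after seeing the data were a test of the 24 h difference, block fits without 1 culture time, and 8 libraries without a filter. The members and lists were chosen with earlier results of these data known. Named genes are the 6 members, Bmp2, from each list up to 4 genes with the smallest p and the 2 with the highest CPM, and the 2 nearest profiles of each member, and a pair of signal transducers is not reported here by name. Hras and Spi1 were matched by their older symbols. On simulated counts of this size the fit without a block recovered the set differences where libraries varied independently and missed them where libraries of 1 culture time shared variation, which the block fit recovered. Summaries used Python 3.11.15, pandas 2.3.3, scipy 1.17.1 and matplotlib 3.10.9.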

Additional observations from a re-analysis of the deposited data

Results flagged for a closer look

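Pdgfb in the Fx library of 6 h (17.1 CPM) stood far from the other 3 Fx libraries (4.48 to 5.83 CPM). Its gap to the nearest of them was 0.893 of the range of the group, above Dixon's 95% critical value for 4 samples, which chance passes in about 1 of 20 groups, and 12 groups were looked at.

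The genotype difference at 24 h pointed the other way from that at 6, 48 and 72 h for Pdgfc and Pdgfrb. For Pdgfc the log2 ratio of Ko over Fx was 0.30 at 24 h, against -0.70, -1.23 and -0.08 at 6, 48 and 72 h. For Pdgfrb it was -0.046 at 24 h, against 0.55, 0.40 and 0.51. When the difference itself was tested over all 8 libraries, a test chosen after seeing the data, it was 0.84 (SE 0.57) for Pdgfc (unadjusted p = 0.184) and -0.58 (SE 0.45) for Pdgfrb (unadjusted p = 0.238), both at adjusted p = 1.00 in edgeR.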

How the results depend on the processing

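With 1 library per genotype and time, the spread between replicates holds any change with culture time. Pdgfd rests on 2 to 9 counts per Fx library. Scaling by RLE in place of TMM moved the log2 fold changes of all genes by a median of -0.0086 and no member changed sign by it.

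The number of members past the adjusted limit was 1, in a fit that called 2.22% of all genes tested. With culture time as a replicate block it was 4, where 22.7% of genes were called. Over 8 libraries it was 0 with or without that block and with or without the filter, which removes Pdgfd there. Those fits called 0.00 to 0.926% of genes. It was 0 when each library had to hold at least 10 counts, which removes Pdgfd, where 1.19% were called. Leaving out each library in turn gave 0 to 2, in fits that called 0.0676 to 2.86% of genes. In the block fits without both libraries of 6, 48 or 72 h it was 2, 4 and 3. These fits called 13.9, 19.6 and 11.7% of genes. The number past the limit of the study's methods was 2, and it was 0 over 8 libraries with or without the block, 1 over 8 libraries without a filter, with and without the block, 1 with at least 10 counts in each library, 1 in the block fit without 48 h and 1 to 2 when each library was left out in turn.

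For Pdgfa the log2 fold change was -1.14 with the block, -1.22, -0.87 and -1.38 in the block fits without 6, 48 or 72 h, all past the limit, and -1.63 to -0.80 when single libraries were left out. For Pdgfb it turned to 0.11 over 8 libraries, 0.14 over 8 with the block, and 0.098 and 0.12 for these without a filter, and ran from -0.82 to 0.19 when single libraries were left out. For Pdgfc it was -0.98 and past the limit in the block fit without 72 h. Pdgfd no longer passed over 8 libraries without a filter, at 3.16, or at 2.99 with the block, and its range over left-out libraries was 3.09 to 4.13. Pdgfra was -0.52 with the block and -0.74 in the block fit without 48 h, and Pdgfrb 0.49 and 0.53, all past the limit. The slopes on time of Pdgfc and Pdgfd ran from -0.088 to 0.059 and from -0.50 to 0.11 when single libraries were left out, turning sign without Ko replicate 4 and Fx replicate 1. The cause of these shifts was not tested, save that left-out libraries and the block change what counts as spread.

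Among the other named genes, leaving out 1 library turned the sign of Ccl2 (range -0.0044 to 0.49), Ccl7 (-0.64 to 0.13), Csf1 (-1.11 to 0.017), Lrp1 (-0.023 to 0.46), Sparc (-0.085 to 0.27), Rasa1 (-0.22 to 0.14), Chac1 (-0.60 to 0.14) and Slc17a7 (-0.66 to 0.24). Over 8 libraries, with the block, and each without a filter, Chac1 turned to 0.065, 0.063, 0.052 and 0.041 and Slc17a7 to 0.22, 0.21, 0.21 and 0.20. Rasa1 was 0.040 in the block fit without 6 h. Leaving out 1 library moved Plaur from -0.64 to -1.63, Flt1 from -0.81 to -1.99, Vegfa from -0.31 to -0.71, Furin from -0.098 to -0.31 and Plat from -0.11 to -0.57.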
